A study of Mus musculus with 3 samples.

Results

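The endothelin system of the mouse glomerulus was described from 7 genes, the ligand genes Edn1, Edn2 and Edn3, the receptor genes Ednra and Ednrb, and the converting enzyme genes Ece1 and Ece2. The members were the probe sets of the array whose only gene symbol in the platform annotation was one of these names. This gave 14 of the 34958 probe sets with 1 symbol (45101 in all), and they covered 6 of the 7 genes and 6 of 18194 genes on the array. Ednra was not analysed here. Expression was measured in isolated glomeruli of 3 wild-type FVB/NJ males, nondiabetic and 8 weeks old, by hybridising the RNA of about 1000 glomeruli from each mouse to its own Affymetrix 3′ array. These mice serve the series as controls for diabetic OVE26 mice, which were not analysed here, so there was no contrast between groups and the comparison made was that between mice.

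Endothelins are short vasoactive peptides made from long precursors. Furin-type proteases release an inactive big endothelin, and the membrane metalloproteases ECE-1 and ECE-2 cut it to the active form. Endothelin-1 comes mainly from endothelium in vessels, and in the kidney also from the collecting duct. The ETA receptor, encoded by Ednra, constricts vessels and contracts mesangial cells, while the ETB receptor, encoded by Ednrb, releases nitric oxide and prostacyclin from endothelium and clears the circulating peptide.

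Of the 3 ligand genes, 1 gave signal above background on every array, and it was Edn1. The stretches around the annotated starts of the ligand genes and of Ednrb are shown because the Edn1 stretch holds 3 sequence elements that the other stretches shown lack. These elements were searched for because they are known from the control of Edn1. Stretches of Ednra, Ece1 and Ece2 are not shown, and some of those of Ece1 and Ece2 hold 1 of the elements. Whether the elements bear on which genes gave signal was not tested. The stretches run from 250 bases before to 50 after the start, 5′ to 3′ on the strand of the gene, from the RefSeq table of assembly GRCm38.p6. That assembly is of the C57BL/6J strain, not FVB, and the arrays did not read these stretches. Capitals mark matches, on either strand, to the GATA element AGATAA, the core ACGTG of the hypoxia-inducible factor element, the AP-1 element TGACTNA and the TATA box TATAAA.
Edn1, chr13:42301226-42301525, + strand: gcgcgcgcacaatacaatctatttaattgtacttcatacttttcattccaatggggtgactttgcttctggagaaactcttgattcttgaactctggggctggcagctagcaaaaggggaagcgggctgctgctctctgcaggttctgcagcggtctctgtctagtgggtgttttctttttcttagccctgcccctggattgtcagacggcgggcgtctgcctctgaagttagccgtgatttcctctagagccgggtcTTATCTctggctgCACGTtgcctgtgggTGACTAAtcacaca
Edn2, chr4:120160956-120161255, + strand: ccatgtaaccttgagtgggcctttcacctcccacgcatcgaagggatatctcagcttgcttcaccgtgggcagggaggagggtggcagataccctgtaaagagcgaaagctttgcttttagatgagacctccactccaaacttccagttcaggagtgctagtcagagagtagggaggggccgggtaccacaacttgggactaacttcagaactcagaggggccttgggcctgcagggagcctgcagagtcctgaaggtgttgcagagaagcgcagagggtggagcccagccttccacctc
Edn3, chr2:174760369-174760668, + strand: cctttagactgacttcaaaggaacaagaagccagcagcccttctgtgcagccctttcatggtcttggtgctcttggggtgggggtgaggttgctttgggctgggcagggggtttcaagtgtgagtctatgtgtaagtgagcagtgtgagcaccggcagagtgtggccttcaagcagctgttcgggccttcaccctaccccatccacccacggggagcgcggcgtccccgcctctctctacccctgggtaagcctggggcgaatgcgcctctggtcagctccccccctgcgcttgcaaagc
Ednrb, chr14:103843652-103843951, - strand: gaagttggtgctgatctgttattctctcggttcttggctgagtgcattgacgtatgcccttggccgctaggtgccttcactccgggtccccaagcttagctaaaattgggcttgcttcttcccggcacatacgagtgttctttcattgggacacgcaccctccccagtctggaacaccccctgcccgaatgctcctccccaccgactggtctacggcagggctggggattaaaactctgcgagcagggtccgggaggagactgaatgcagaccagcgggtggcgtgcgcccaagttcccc

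The Edn1 stretch held 1 match each to the GATA element (bases 9 to 14 counted from the start, on the opposite strand), the hypoxia element core (bases 22 to 26, opposite strand) and the AP-1 element (bases 37 to 43), and these did not overlap. All of these matches lie after the annotated start, and TATAAA did not match in the Edn1 stretch. Where this start lies relative to the elements known from the control of Edn1 was not examined. Sequence outside the stretch was not searched. None of the 4 motifs matched in the stretches of Edn2, Edn3, Ednra or Ednrb. Of 4 Ece1 stretches, 1 held 2 overlapping matches to the hypoxia core, which are the single site CACGTG counted once on each strand. The Ece2 stretch held 1 match to this core. Among 32851 stretches of the same length in the table, 11.2% held AGATAA, 19.6% held ACGTG, 13.9% held TGACTNA and 13.6% held TATAAA. A match is a description of letters and not evidence of binding.

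All values below are on the log2 scale of GCRMA, the method by which each probe set was summarised, and each error is the SD between the 3 mice. A probe set counted as above background on an array when it exceeded an empirical floor, the 95th percentile there of 80 olfactory or vomeronasal receptor probe sets. This floor was 2.58, 2.91 and 2.86 in mice 1, 2 and 3. Probes differ in how strongly they bind, so levels are given against this floor and never against another gene. A gene with more than 1 probe set is represented by the one of highest mean. The tissue label was checked against marker lists. Podocyte markers were above the floor for 6 of 6 genes, glomerular endothelial markers for 8 of 8 and mesangial and pericyte markers for 6 of 6. Of all 18194 genes, 58.3% were above it on all arrays. Nphs1, the gene of the slit diaphragm protein nephrin, was at 11.36, 11.30 and 10.90 in mice 1, 2 and 3.

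Among the ligand genes, Edn1, which encodes the precursor of endothelin-1, was at 6.78, 6.48 and 7.02 in mice 1, 2 and 3 (6.76 ± 0.27 SD, n = 3), read by 1 probe set (1451924_a_at). Mouse 3 was highest and mouse 2 lowest, 1.46-fold apart, and every value was at least 3.57 above the floor of its array. Edn2, which encodes endothelin-2, was at 3.01, 2.75 and 2.75 (1449161_at). It exceeded the floor in mouse 1, by 0.43, and lay under it in mice 2 and 3.

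Edn3, which encodes endothelin-3, the ligand that binds ETB in preference to ETA, had 4 probe sets and none was above the floor on all arrays. The one with the highest mean (1441924_x_at) was at 2.53, 3.05 and 3.03 in mice 1, 2 and 3, above the floor in mice 2 and 3 and under it in mouse 1. Its suffix marks probes that may cross-hybridise with other transcripts. The probe set 1438696_at was at 2.67, 2.83 and 2.86, above the floor in mouse 1 by 0.084 and in mouse 3 by 0.0082. The other 2 probe sets were under the floor in every mouse, at means of 2.26 and 1.93. No level can be given for Edn2 or Edn3 beyond these values near the floor.

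The receptor gene Ednrb was far above the floor on all of its 3 probe sets. Its leading probe set (1437347_at) was at 12.33, 12.05 and 12.41 in mice 1, 2 and 3 (12.26 ± 0.19 SD, n = 3), and the highest and lowest mouse differed 1.28-fold. A second probe set (1423594_a_at) was at 10.12, 10.24 and 10.72. The remaining one (1426314_at) was at 7.46, 6.53 and 6.76, with a 1.91-fold range, the widest of the 14 probe sets. RefSeq lists 4 transcripts for Ednrb, and the sources used here do not say which of them each probe set reads.

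The 3 Ednrb probe sets did not order the mice alike. Mouse 3 minus mouse 1 was 0.08 on the leading probe set, 0.61 on the second and −0.70 on the remaining one. Mouse 2 was lowest on 2 of them and in the middle on 1423594_a_at. The one difference with the same sign on all was that of mouse 3 over mouse 2, at 0.36, 0.48 and 0.23. With 1 array per mouse, there is no repeat measurement of a mouse against which to test these differences.

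**Figure D1:**
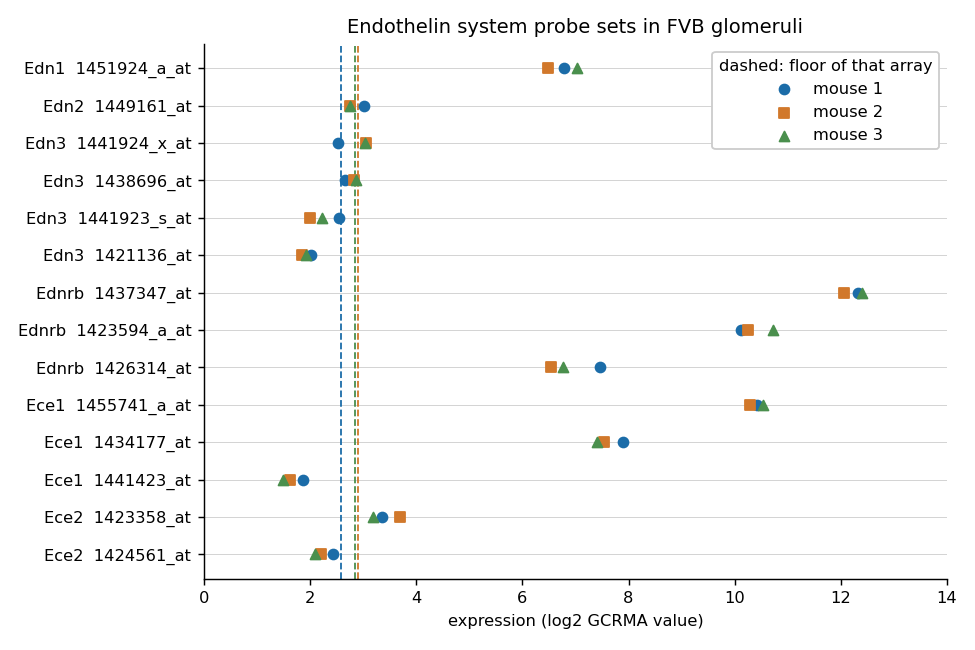
Log2 GCRMA value (x axis) of every endothelin system probe set (y axis), with 1 point per mouse and the background floor of each array as a dashed line of the same colour. Edn1, Ednrb, 2 of 3 Ece1 probe sets and 1 of 2 Ece2 probe sets lie right of all floors, and the probe sets of Edn2 and Edn3 lie near or under them.

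Of the converting enzymes, Ece1, the main enzyme that activates big endothelin, was at 10.42, 10.28 and 10.53 in mice 1, 2 and 3 (10.41 ± 0.12 SD, n = 3; 1455741_a_at), a 1.18-fold range. A second probe set (1434177_at) was at 7.90, 7.54 and 7.40, with mouse 1 highest and mouse 3 lowest, whereas mouse 3 was highest on the leading one. The remaining probe set (1441423_at) was under the floor in every mouse, at 1.87, 1.62 and 1.49. RefSeq lists 4 transcripts for Ece1 as well, and the probe sets are not assigned to them here.

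Ece2, a related enzyme with an acidic optimum, was just above the floor, at 3.36, 3.70 and 3.19 in mice 1, 2 and 3 (3.42 ± 0.26 SD, n = 3; 1423358_at). It exceeded the floor by 0.78 in mouse 1 and by 0.33 in mouse 3. Its other probe set (1424561_at) was under the floor in every mouse, at 2.44, 2.20 and 2.08. RefSeq lists Eef1akmt4-Ece2 among the names of this gene, a transcript shared with the neighbouring gene Eef1akmt4, so the signal may not belong to Ece2 alone.

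In all, 4 of the 6 genes with a probe set were above the floor on all arrays, where 58.3% of the 18194 genes were, and 7 of the 14 probe sets. The calls of the dim genes depended on the floor. With the 99th percentile of the receptor probe sets as the floor, 3 genes remained above it (Edn1, Ednrb and Ece1), and with the 90th percentile all 6 were above it. Without mouse 1, Edn3 was above the floor too, on both of the remaining arrays.

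Whether any member differed between mice by more than genes of like level did was tested with limma, which set the variance of each gene against the distribution fitted over the 10610 genes above the floor. None of the 4 genes passed, each with an adjusted p of 0.972. The test called 0 of all 10610 genes (0%), of which 493 had an unadjusted p under 0.05, and 0 of the 4 members were among those. A missed threshold does not show that the mice were alike.

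By size, none of the 4 genes above the floor reached a 2-fold range between the highest and the lowest mouse, against 5.94% of the genes tested (630 of 10610). The SD of Edn1 lay at the 77.0th percentile of all genes above the floor, that of Ece2 at the 75.2nd, that of Ednrb at the 58.9th and that of Ece1 at the 37.7th. This ranking takes no account of level. The SD that limma fitted for genes of like level was 0.21 for Edn1, 0.22 for Ece2, 0.10 for Ednrb and 0.12 for Ece1. Ednrb had the lowest unadjusted p by limma of the 4 genes, at 0.158 on its leading probe set. With every probe set tested by limma as its own feature, the unadjusted p of Ednrb was 0.068 on 1423594_a_at and 0.093 on 1426314_at. The adjusted p was 0.970 on each. The median SD of the 4 genes was 0.224, beside a median of 0.157 over all genes above the floor.

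**Figure D2:**
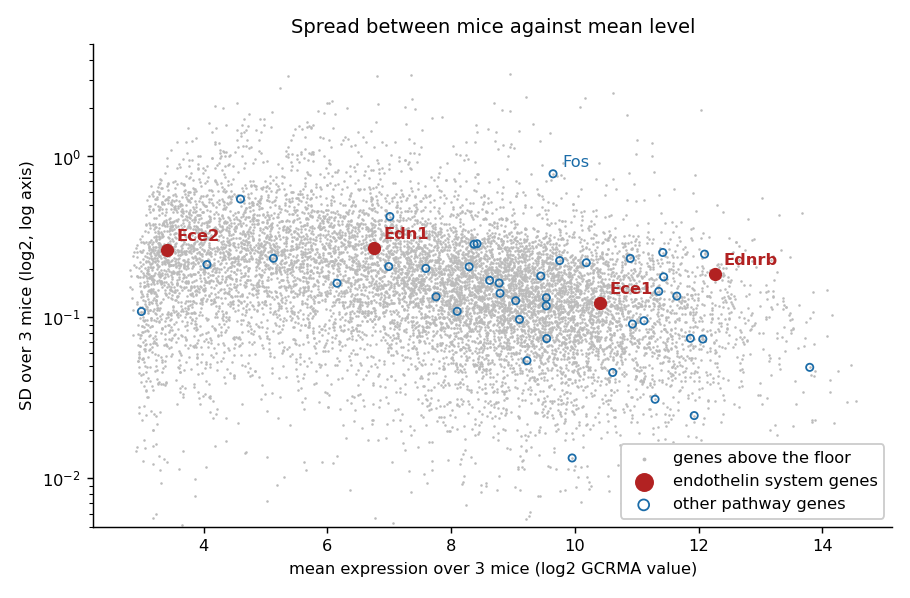
SD over the 3 mice (y axis, log scale, log2 units) against mean log2 GCRMA value (x axis) for genes above the floor. All genes are in grey, other pathway genes are open circles and the 4 endothelin genes above the floor are in red. The endothelin genes lie inside the cloud of genes of like level, with SDs from 0.12 to 0.27, and Fos is the pathway gene with the largest SD, at 0.78; genes with an SD of 0.005 or less are not drawn.

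Edn1, Ednrb and Ece1 shared an order of the mice on their leading probe sets, with mouse 3 highest, mouse 1 in the middle and mouse 2 lowest, and Ece2 ran with mouse 2 highest and mouse 3 lowest. This order was picked out after the values were seen. It was the order of 3 of the 4 members and of 18.6% of all genes tested. The other probe sets of Ednrb and the second of Ece1 did not follow it, and the differences between mouse 3 and mouse 2 on the 3 leading probe sets were 0.54, 0.36 and 0.24.

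**Figure D3:**
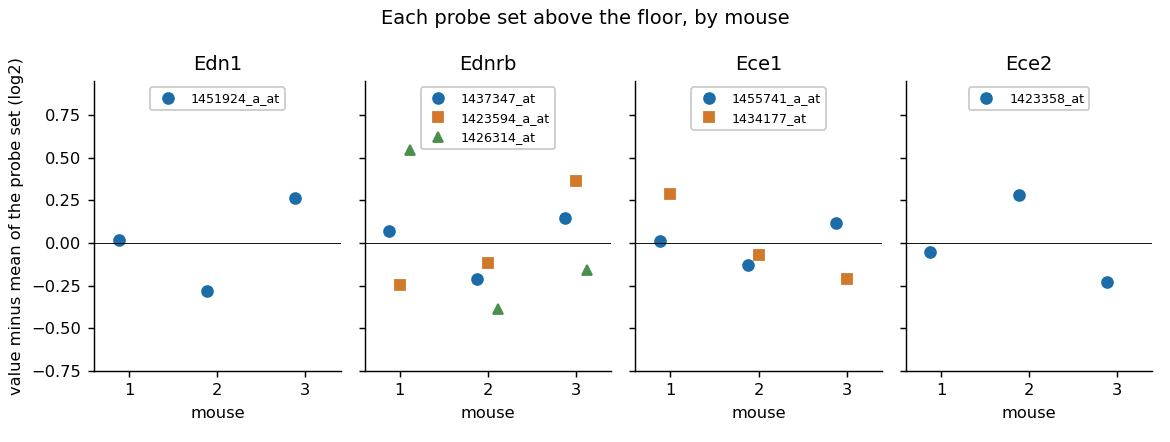
Value of each probe set above the floor on all arrays minus its own mean over the 3 mice (y axis, log2), by mouse (x axis), with 1 marker per probe set. For Ednrb the probe sets give mouse 1 the highest, the middle or the lowest place, and for Ece1 the 2 probe sets put mouse 3 at opposite ends.

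Many markers of tubule and leukocytes had a 2-fold range over these isolates, which no endothelin gene had. Of 8 proximal tubule markers, 7 were above the floor in every mouse and 6 had a 2-fold range, and their median deviation from the gene mean was −1.10, −0.38 and 1.67 in mice 1, 2 and 3. Of 9 markers of later nephron segments, from the loop of Henle to the collecting duct, 4 were above the floor in every mouse and all 4 had a 2-fold range, with median deviations of −0.67, 0.67 and 0.02. Of 8 leukocyte markers, 5 were above it and 4 of these had a 2-fold range, with 1.24, −0.02 and −1.22. In bulk RNA, fewer cells of a type and less RNA per cell cannot be told apart. The part of these cells in the values of the endothelin genes was not tested.

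Among those lists, the collecting duct is a known source of Edn1 and Ednrb. The water channel gene Aqp2 was at 2.65, 2.60 and 2.87 and the sodium channel gene Scnn1b at 2.38, 2.14 and 2.11 in mice 1, 2 and 3, near or under the floor. Hsd11b2, a gene of aldosterone-sensitive cells, was at 3.34, 2.85 and 3.30, above the floor in mice 1 and 3. Calb1, a distal tubule gene, was at 3.80, 3.64 and 5.55, above the floor in all mice and highest in mouse 3. Other genes of the same list were highest in mouse 2. These were Slc12a3 (2.36, 4.32 and 3.67), Slc12a1 (10.09, 11.68 and 10.85), Kcnj1 (6.36, 8.67 and 7.52) and Umod, a marker of the loop of Henle (12.47, 13.56 and 13.06). Endothelium is another known site of both genes, and its markers were highest in mouse 1 for 7 of 8 genes, with median deviations of 0.12, −0.10 and −0.05. Those of podocyte markers were 0.03, 0.06 and −0.12, and those of mesangial and pericyte markers −0.005, −0.02 and 0.04. Edn1 and Ednrb deviated by 0.02 and 0.07 in mouse 1, by −0.28 and −0.21 in mouse 2 and by 0.26 and 0.14 in mouse 3. The actin control signal at the 3′ end exceeded that at the 5′ end, a gap that widens as RNA degrades, by 1.49, 1.81 and 2.05 in mice 1, 2 and 3. The same gap for Gapdh was 0.48, 1.08 and 0.92, widest in mouse 2, and the part of RNA quality was not tested either.

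**Figure D4:**
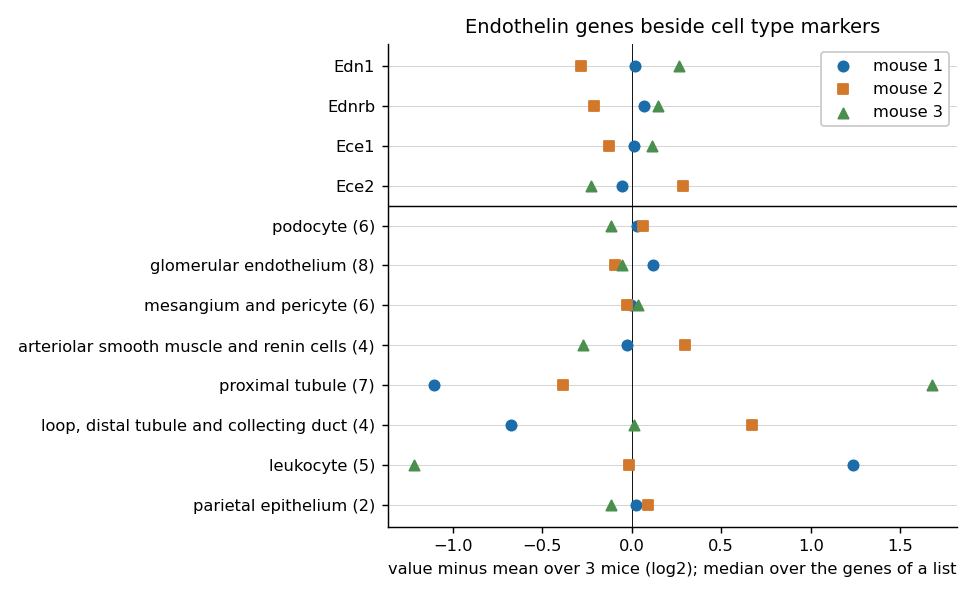
Deviation from the mean over the 3 mice (x axis, log2) of the 4 endothelin genes above the floor. Under the line is the median deviation of each cell type marker list, with the number of its genes above the floor in parentheses. The largest deviation among the endothelin genes, each drawn by its leading probe set, is 0.28, for Ece2 in mouse 2. Proximal tubule markers reach 1.67 in mouse 3.

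The rest of the pathway was described from 51 other genes in 6 roles, of which 47 had a probe set with 1 symbol. Of these, 41 were above the floor in every mouse, where 58.3% of all 18194 genes were. The counts by role below are to be read beside that share. None passed the limma test for excess variance, which called 0% of all genes, and 1 had an unadjusted p under 0.05. A 2-fold range was found for 1 of the 41, against 5.94% of all genes tested, and it was Fos. Their median SD was 0.145.

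Of 6 genes for other steps of peptide processing and breakdown, 2 were above the floor. Furin, whose protease makes big endothelin, was at 7.52, 7.43 and 7.82 in mice 1, 2 and 3, and Mme, whose product neprilysin degrades endothelins, was at 11.84, 11.80 and 11.95. The mice lay within 1.31-fold of each other for Furin. Kel, Mmel1, Ecel1 and Cma1 were under the floor on all arrays, among them the genes of the Kell protease, which cuts big endothelin-3, and of mast cell chymase.

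All 7 G protein genes were above the floor, and their median SD was 0.073. Gnaq, the subunit through which both receptors activate phospholipase C, was at 10.99, 10.97 and 10.83, and Gna11, its close relative, at 9.75, 9.53 and 9.98 in mice 1, 2 and 3. Gna11 had the largest SD of the 7 at 0.23. Further along this route, 9 of 9 measured genes of phospholipase C, calcium release and protein kinase C were above the floor. Itpr3, an inositol trisphosphate receptor gene, was at 6.95, 7.46 and 6.62, and Prkca, the gene of protein kinase C alpha, at 11.39, 11.18 and 11.69. Plcb1, which encodes a phospholipase C, was at 10.32, 10.30 and 9.93, with mouse 3 lowest. Prkcd, the gene of protein kinase C delta, was closer to the floor, at 3.92, 4.30 and 3.94.

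Receptor desensitisation was represented by 8 genes, all above the floor, with a median SD of 0.13. Rgs2, which encodes an inhibitor of Gq signalling, was at 11.90, 11.94 and 11.94.

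Of the enzymes that make vasodilators downstream of ETB, 3 of 4 measured genes were above the floor. Nos3, the endothelial nitric oxide synthase gene, was at 8.65, 8.38 and 8.08 in mice 1, 2 and 3, highest in mouse 1 as most endothelial markers were. Ptgs2, the inducible cyclooxygenase gene, was at 3.97, 4.88 and 4.94, with mouse 1 lowest and a 1.96-fold range. Ptgis, the prostacyclin synthase gene, was at 5.09, 4.91 and 5.38. Ptges was under the floor on all arrays.

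The list of Edn1 regulators held some genes of the factor families named for the 3 elements, and not every member of these families. Whether any of them acts on the matches in the Edn1 stretch was not tested. Gata6 was under the floor on all arrays, at 2.05, 1.73 and 2.24 in mice 1, 2 and 3. Gata2, a GATA factor gene of endothelium, was at 8.27, 8.24 and 8.75 in mice 1, 2 and 3. The hypoxia-inducible factor genes Hif1a (11.26, 11.31 and 11.32) and Epas1 (13.82, 13.83 and 13.74) had SDs of 0.031 and 0.049, and Arnt, their partner, was at 8.16, 7.97 and 8.16. Of the AP-1 genes, Fos was at 8.75, 10.10 and 10.09, a 2.56-fold range with mouse 1 lowest, and Jun at 10.66, 10.91 and 11.12, also with mouse 1 lowest.

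Fos had an adjusted p of 0.707 by limma and did not pass. Without mouse 1 it had no 2-fold range, and no pathway gene had one. Klf2 and Klf4, shear-responsive factors of endothelium, were at 11.20, 11.38 and 11.49 and at 12.02, 11.90 and 12.37 in mice 1, 2 and 3.

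**Figure D5:**
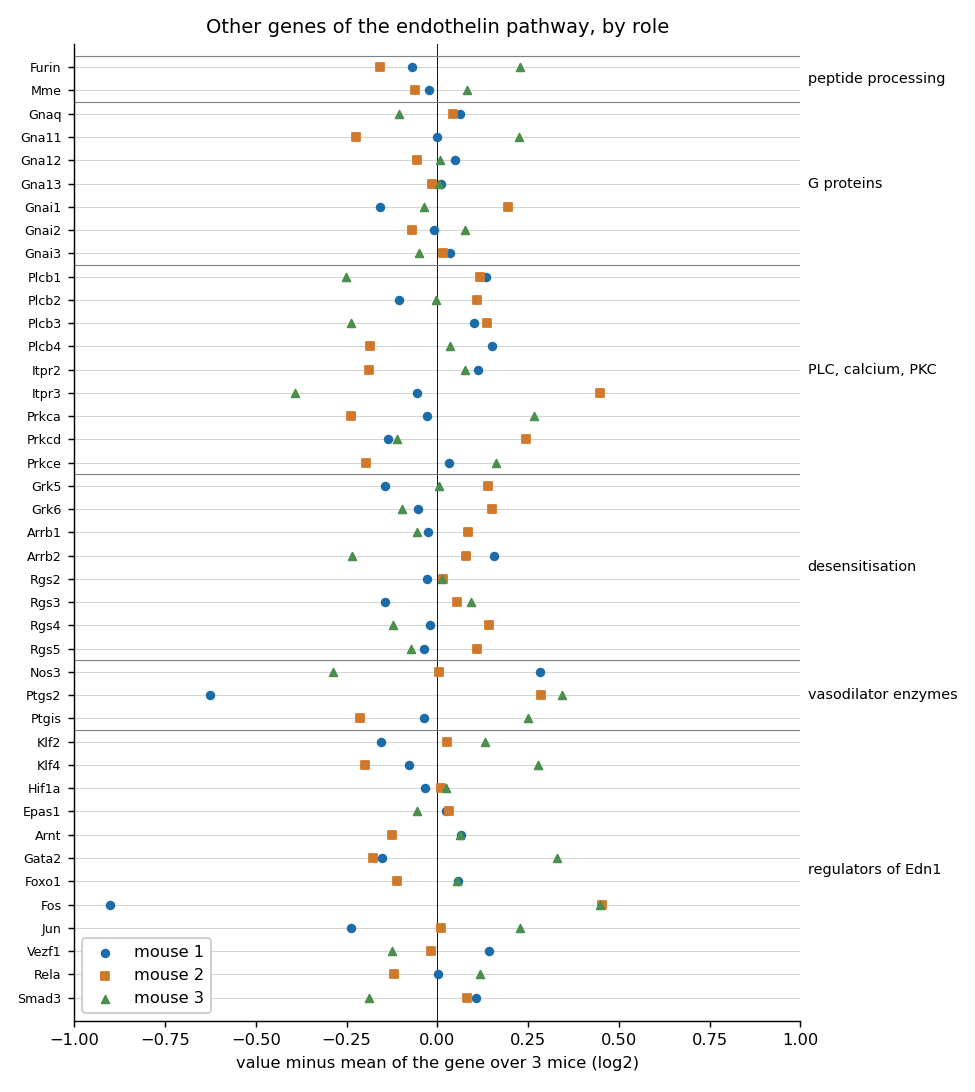
Value minus the mean of the gene over the 3 mice (x axis, log2) for the 41 other pathway genes above the floor, grouped by role (y axis), with 1 marker per mouse. In all, 33 of the 41 genes lie within 0.25 of their mean in every mouse, and Fos and Ptgs2 are the genes with mouse 1 furthest to the left.

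The choice of probe set mattered for 3 further pathway genes. Of the 41 genes, 28 had several probe sets above the floor. Rgs5, a pericyte gene for a G protein regulator, was at 11.08, 11.22 and 11.04 on its leading probe set and at 6.94, 6.30 and 4.93 on another (1420942_s_at), a 4.05-fold range with mouse 3 lowest. Mme just reached a 2-fold range on one probe set (1422975_at, at 6.65, 5.64 and 6.33), and Prkca had a 2.26-fold range on one near the floor (1427562_a_at, at 3.02, 3.64 and 4.20). With every probe set counted, 4 of 41 pathway genes had a 2-fold range on at least 1 probe set, where 8.96% of all genes had one.

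The genes whose values over the 3 mice were most like those of Edn1, the member above the floor with the largest SD, were Nipal3, Rnpep, Zfp654, Fxr2 and Fam122a. Likeness was the root mean square difference of the values after centring each gene on its mean, over 3 arrays, and it was 0.0013 to 0.0049 for these genes. Of 4020 genes with an SD of at least 0.2, 428 were within 0.1 of Edn1 by this measure. This likeness was thus shared by many genes, and it says nothing of shared function.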

How the data were processed

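Glomerular RNA of 3 FVB mice was hybridised to 1 Affymetrix 3′ array each. The labels' protocols give DNase treatment, an RNA integrity above 8 and amplification with a 3′ kit. The authors summarised each probe set with GCRMA, per the submitters' processing notes, and deposited values read here as log2 expression. This scale was taken from their range (0.67 to 14.76) and is not stated in the labels. The version, the genome build and which arrays were normalised together are not given in the sources used here. No further normalisation was applied, and 0 columns were left unused.

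The platform annotation gave the gene of each probe set, and those with several symbols (932) or none (9211) were not used. The mouse numbers come from the sample titles. The variance over the mice was tested per gene in limma 3.58.1 (R 4.3.3), with a trend on mean level, a robust fit and upper-tail p-values with Benjamini-Hochberg adjustment over all genes at 0.05, and this test was checked on simulated data. There it recovered few genes unless their spread between mice was raised many times over, so its lack of calls says little about smaller differences. Named pathway genes were the 12 with a 2-fold range or the largest SD, beside genes named for their role. One further list of pathway genes is not reported here. Members and lists were chosen with earlier results of these data known. The number of arrays and signal over the floor limit the precision. Alternatives changed the scaling, the probe set rule, the floor and the variance prior, and left out each mouse.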

Additional observations from a re-analysis of the deposited data

How the results depend on the processing

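Quantile normalisation and centring of the arrays moved no array median by more than 0.017 and changed no count of endothelin or pathway genes. The endothelin genes above the floor numbered 4, and 3 to 6 under the other floors and probe set rules, with 4 to 5 when a mouse was left out. With the mean over all probe sets, 3 were above it, without Ece2. No endothelin gene passed the variance test or had a 2-fold range under any alternative run. Pathway genes with a 2-fold range were 1, 4 with every probe set kept, and 0 to 1 when a mouse was left out (0 without mouse 1, since Fos was lowest there). Over all genes, 630 had a 2-fold range, 951 with every probe set kept and 319 to 371 with a mouse left out, where fewer arrays give a narrower range. Of 36 recomputed levels of the endothelin genes, 32 moved by under 1 SD. The other 4 were means over all probe sets, of 2.46 for Edn3, 9.85 for Ednrb, 6.56 for Ece1 and 2.83 for Ece2, which include dimmer probe sets. No paired analysis was possible because all arrays belong to 1 group. For Edn2, Edn3 and Ece2 the signal over the floor limits what can be said.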
